A study of Mus musculus with 8 samples.

Results

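The genes described here are 10 genes of vessel sprouting that belong to the apelin, angiopoietin and Notch systems: Aplnr, Apln, Angpt1, Angpt2, Tek, Tie1, Esm1, Dll4, Notch1 and Hey1. They were chosen by gene symbol, all 10 were found on the array with 1 probe set each, and they are 10 of 19933 genes tested. Left ventricular RNA was hybridised to Affymetrix mouse gene arrays, with 1 array for each heart. The hearts came from 8 C57/Bl6 mice of 11 weeks of age and formed 3 groups, with 3 mice in control, 2 in PlGF and 3 in the group labelled PlGF/RGS4. In the TET-OFF PlGF line, placental growth factor is made in cardiomyocytes under a transactivator, tTA, that the αMHC promoter drives, and the PlGF/RGS4 line is labelled as carrying RGS4, a regulator of G protein signalling, as well. Doxycycline in the diet kept the transgenes off until 5 weeks of age, after which they were expressed for 6 weeks on normal chow. Control mice were littermates that inherited a single transgene, and the labels do not say which transgene each of them carried, so a control heart may carry tTA alone or a silent responder. The study compared PlGF hearts with the hearts labelled PlGF/RGS4 to separate vessel growth with hypertrophy from vessel growth without it.

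Apelin, encoded by Apln, is a peptide that tip cells of growing vessels release, and its receptor Aplnr sits on endothelial cells of veins and sprouts and in the heart also affects contraction. Angiopoietin-1, made by perivascular cells and cardiomyocytes, activates the endothelial receptor Tie2 (gene Tek) and keeps vessels stable, whereas angiopoietin-2, stored in endothelial cells, usually opposes it, and Tie1 is a co-receptor of Tie2. Dll4 on a tip cell activates Notch1 on its neighbours, which switch on Hey1 through the DNA-binding protein RBPJ and remain stalk cells, and Esm1 (endocan) is a secreted proteoglycan used as a tip cell marker.

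A check of the labels comes before the results. Pgf, which encodes PlGF, read 211.1, 348.9 and 387.1 in control hearts and 4136.3 and 916.6 in PlGF hearts, but 300.0, 229.0 and 210.8 in the arrays labelled PlGF/RGS4. Rgs4 read 209.5 to 281.5 in control hearts and 186.9 to 233.7 in the arrays labelled PlGF/RGS4, so neither transgene was visible there. A probe set outside a transgene's sequence would not detect it. This limit is open for Rgs4, whereas the Pgf probe set did read high in both PlGF hearts. These arrays are therefore called the hearts labelled PlGF/RGS4 throughout. PlGF heart 1 stood apart from all other arrays, with a mean correlation of 0.974 with the arrays of other groups against 0.991 to 0.993 for every other array, and it had the higher Pgf reading. Xist, expressed in females, read 26.9 to 50.8 in 1 heart of each group (control 2, PlGF 1 and PlGF/RGS4 2) and 2580.8 to 2958.5 in the other 5. A difference between PlGF 1 and PlGF 2 therefore cannot be told apart from a difference of sex. No fit included sex.

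As background, 250 bases before the start of transcription were taken from RefSeq (GRCm38.p6) for the members that had an entry, which were 6 of 10. A link between these bases and the readings was not tested. Aplnr, Angpt1, Angpt2 and Hey1 had none. Printed below, 5′ to 3′ on the gene's strand, are the promoters of Tie1 (chr4:118489850-118490099, minus strand), Esm1 (chr13:113209409-113209658, plus strand) and Notch1 (chr2:26503823-26504072, minus strand), the members with an entry whose PlGF readings lay above every control reading. Capitals mark a match to the core of the RBPJ motif, TGGGAA or its reverse complement TTCCCA.
Tie1: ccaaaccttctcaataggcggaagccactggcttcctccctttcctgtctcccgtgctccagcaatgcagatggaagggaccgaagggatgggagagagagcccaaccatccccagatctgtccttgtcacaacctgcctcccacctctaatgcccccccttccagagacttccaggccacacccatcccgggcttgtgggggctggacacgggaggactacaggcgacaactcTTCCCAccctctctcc
Esm1: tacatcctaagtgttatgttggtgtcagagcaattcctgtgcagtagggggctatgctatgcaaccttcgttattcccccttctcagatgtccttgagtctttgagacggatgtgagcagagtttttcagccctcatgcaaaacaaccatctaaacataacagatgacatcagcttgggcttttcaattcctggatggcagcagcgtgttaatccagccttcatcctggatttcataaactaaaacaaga
Notch1: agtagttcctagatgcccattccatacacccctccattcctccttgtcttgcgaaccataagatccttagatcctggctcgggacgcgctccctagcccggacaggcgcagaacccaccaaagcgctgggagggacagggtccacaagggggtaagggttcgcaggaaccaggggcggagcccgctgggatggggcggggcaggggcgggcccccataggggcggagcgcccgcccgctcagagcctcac
Among the 6 promoters, Tie1 alone held the RBPJ core, with 1 match, and 21.6% of 32851 RefSeq promoters of the same length hold it. The ETS core, GGAA or TTCC, which the endothelial ETS factors recognise and which overlaps the RBPJ core, was found 7 times in Tie1, 4 times in Notch1, 3 times in Esm1 and Apln, and 2 times in Tek and Dll4. It is present in 93.4% of all promoters, with a median of 3 matches, so most promoters hold it. The HEY E-box, CACGTG, was in none of the 6 and is in 6.02% of all promoters. These matches are letters in a window and not measured binding sites.

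Aplnr rose in the PlGF hearts and Angpt1 fell, and the remaining 8 members did not pass the test. Of the 10 members, 1 was called higher and 1 lower in PlGF against control by limma with Benjamini-Hochberg adjustment over all genes at 0.05, where 2.53% of all genes were called. Unadjusted p was under 0.05 for 3 members (Aplnr, Angpt1 and Esm1), beside 22.6% of all genes. PlGF and control readings did not overlap for 7 members, 5 higher (Aplnr, Angpt2, Tie1, Esm1 and Notch1) and 2 lower (Angpt1 and Hey1), beside 33.9% of all genes. Neither call held when only the compared groups were fitted or under array weights. With a PlGF array left out, PlGF is a single heart whose own spread cannot be estimated, so such a fit says little of stability. Without PlGF 2, 4 members were called (Aplnr and Esm1 higher, Angpt1 and Tek lower), beside 29.7% of all genes. Without PlGF 1, none was called by limma and 5 had an unadjusted p under 0.05, while 1.84% of all genes were called. The median log2 difference of the 10 members was 0.13, and that of all genes tested was -0.03. With 2 PlGF arrays against 3, the smallest exact permutation p is 0.1, so the exact test cannot reach 0.05 in this design. The same limit of 0.1 holds for 3 arrays against 3.

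**Figure D1:**
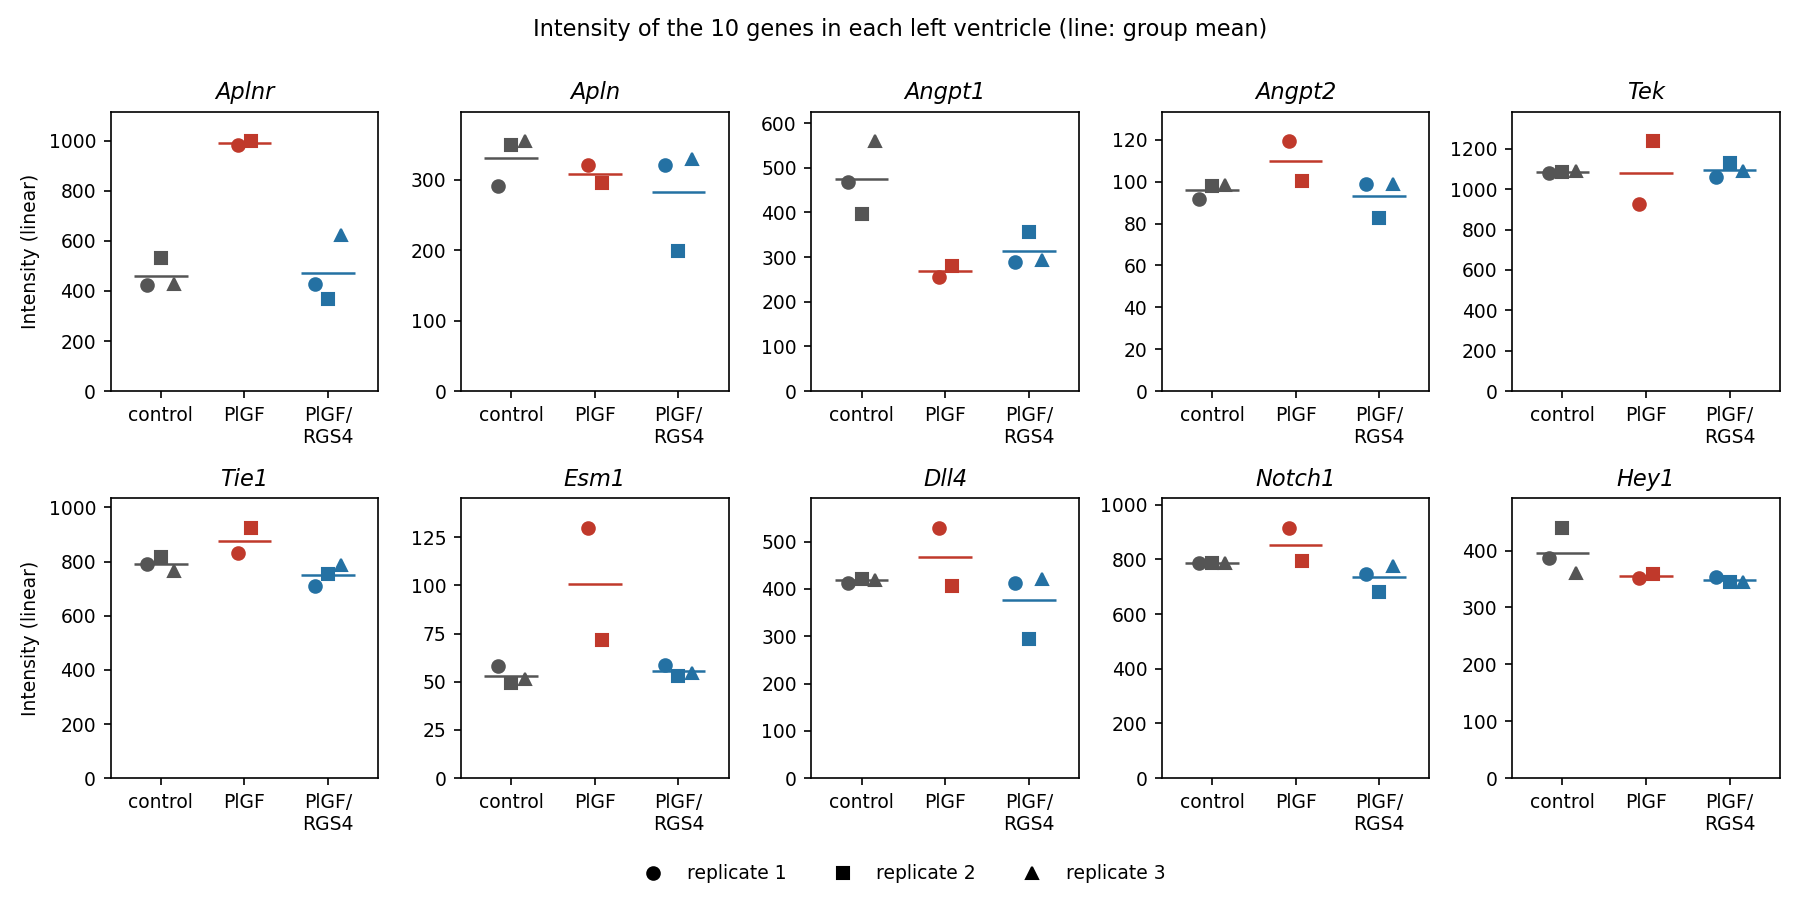
Linear array intensity of each of the 10 genes (vertical axes, from 0, 1 scale for each gene) in each heart by group (horizontal axes), with symbols for the replicate number and a line at the group mean. Aplnr lay at 981.4 and 996.2 in the PlGF hearts and at 621.2 or lower in the other 6, and Angpt1 was below every control heart in all 5 other hearts.

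Aplnr (probe set 10473444) gave an intensity of 421.8, 531.0 and 429.5 in control hearts, 981.4 and 996.2 in PlGF hearts, and 429.0, 367.4 and 621.2 in the hearts labelled PlGF/RGS4. Both PlGF hearts stood above all 6 others and differed little from each other. The mean was 460.8 ± 60.95 (SD, n = 3) in control, 988.8 in PlGF (n = 2) and 472.5 ± 132.38 (SD, n = 3) in the hearts labelled PlGF/RGS4. PlGF exceeded control by 1.11 ± 0.21 on the log2 scale (SE, 95% interval 0.62 to 1.60), a 2.16-fold difference (limma adjusted p = 0.0436). The call stood close to the threshold. It was lost without control 1 (adjusted p = 0.121), control 2 (0.109), control 3 (0.152), PlGF 1 (0.149), PlGF/RGS4 1 (0.0954) or PlGF/RGS4 2 (0.0579), and it passed without PlGF/RGS4 3 (0.0481) and in the fit without PlGF 2 (0.0319), where PlGF is 1 heart. The difference itself was between 1.05 and 1.21 in all 8 of these fits.

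The reading for Apln, the ligand (probe set 10604375), was 290.6, 349.9 and 354.5 in control hearts, 321.4 and 295.8 in PlGF hearts, and 321.4, 198.8 and 329.2 in the hearts labelled PlGF/RGS4. All 3 groups overlapped, and PlGF differed from control by -0.10 ± 0.21 (log2, SE, 95% interval -0.60 to 0.40, limma adjusted p = 0.813). Receptor and ligand were also set against each other in the same heart, which removes any scaling of a whole array. The log2 difference Aplnr minus Apln was 0.54, 0.60 and 0.28 in control hearts, 1.61 and 1.75 in PlGF hearts, and 0.42, 0.88 and 0.91 in the hearts labelled PlGF/RGS4. It was 1.21 higher in PlGF than in control and 0.94 higher than in the hearts labelled PlGF/RGS4, without overlap either time (exact permutation p = 0.1, two-sided, adjusted p = 0.333 over 15 such tests). Apela, which encodes the second ligand of the receptor (Elabela), read 16.5 to 17.7 in all 8 hearts, close to the lowest intensities on these arrays (7.1 to 7.7).

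Angpt1 (probe set 10428376) was lower in every heart of the other groups than in any control heart. Its intensity was 467.2, 395.7 and 558.7 in control hearts, 256.5 and 279.9 in PlGF hearts, and 289.1, 356.2 and 292.6 in the hearts labelled PlGF/RGS4. The PlGF mean of 268.2 compared with 473.9 ± 81.7 (SD, n = 3) in control, a log2 difference of -0.81 ± 0.15 (SE, 95% interval -1.16 to -0.45, 0.572 times the control level, limma adjusted p = 0.0436). This call, too, was lost without control 1 (adjusted p = 0.116), control 2 (0.0825), control 3 (0.124), PlGF 1 (0.174), PlGF/RGS4 1 (0.0938), PlGF/RGS4 2 (0.0714) or PlGF/RGS4 3 (0.0999), and it passed in the fit without PlGF 2 alone (0.0216), where PlGF is 1 heart. The difference stayed between -0.93 and -0.68 in these 8 fits. In the hearts labelled PlGF/RGS4 the mean was 312.6 ± 37.77 (SD, n = 3), -0.59 ± 0.14 from control on the log2 scale, which did not pass the adjustment over all genes (unadjusted p = 0.00288, limma adjusted p = 0.808).

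Angpt2 (probe set 10577315), the antagonist ligand, read 91.7, 98.0 and 98.5 in control hearts, 119.2 and 100.2 in PlGF hearts, and 98.7, 82.7 and 98.7 in the hearts labelled PlGF/RGS4. The PlGF readings lay above all others, by little in PlGF 2, and the difference from control was 0.19 ± 0.10 (log2, SE, limma adjusted p = 0.327). It was a dim probe set, brighter than 46.8% of all those on the array. Within each heart, the log2 difference Angpt2 minus Angpt1 was -2.336, -2.003 and -2.492 in control hearts, -1.099 and -1.473 in PlGF hearts, and -1.541, -2.093 and -1.558 in the hearts labelled PlGF/RGS4. The balance was thus 0.99 higher in PlGF than in control without overlap (exact permutation p = 0.1, two-sided, adjusted p = 0.333). In the hearts labelled PlGF/RGS4 it was 0.55 higher than in control, with overlap (exact permutation p = 0.2, two-sided). A ratio of this kind shows that the pair changed unequally and not which of them changed.

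Neither Tie receptor passed the test. Tek (probe set 10505954) read 1080.7, 1085.7 and 1089.3 in control hearts, 928.8 and 1236.1 in PlGF hearts, and 1059.6, 1130.4 and 1089.3 in the hearts labelled PlGF/RGS4. PlGF heart 1 was the lowest of all 8 and PlGF heart 2 the highest, so the group difference of -0.02 ± 0.11 (log2, SE, limma adjusted p = 0.942) averaged opposite deviations. Without PlGF 1 the difference was 0.19, and without PlGF 2 it was -0.22 (limma adjusted p = 0.0231, for 1 PlGF heart against the spread of the other groups). Tie1 (probe set 10515771) read 792.4, 817.1 and 766.1 in control hearts, 832.1 and 922.2 in PlGF hearts, and 709.4, 752.2 and 787.8 in the hearts labelled PlGF/RGS4. Both PlGF hearts were above all others, by 0.15 ± 0.07 from control (log2, SE, limma adjusted p = 0.26). Tek minus Tie1 within a heart was 0.41 to 0.51 in control hearts, 0.16 and 0.42 in PlGF hearts, and 0.47 to 0.59 in the hearts labelled PlGF/RGS4.

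Esm1 (probe set 10407281) had the second largest positive difference among the members and did not pass the test. Its intensity was 58.0, 49.5 and 51.7 in control hearts, 129.6 and 71.8 in PlGF hearts, and 58.6, 53.2 and 54.8 in the hearts labelled PlGF/RGS4. The PlGF hearts lay above the 6 others, but PlGF 1 far more than PlGF 2. PlGF differed from control by 0.85 ± 0.21 (log2, SE, 95% interval 0.35 to 1.35, unadjusted p = 0.0047, limma adjusted p = 0.0791). Without PlGF 1 the difference was 0.43, and without PlGF 2 it was 1.28 (limma adjusted p = 3.64e-04, for 1 PlGF heart against the spread of the other groups). The probe set was brighter than 38.0% of those on the array, and no detection call was used here.

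No Notch member passed the test, whether ligand, receptor or target. Dll4 (probe set 10474958) read 413.5, 421.5 and 419.1 in control hearts, 528.0 and 406.5 in PlGF hearts, and 412.8, 294.2 and 421.5 in the hearts labelled PlGF/RGS4. A single PlGF heart was high and a single heart labelled PlGF/RGS4 was low, and the PlGF difference was 0.15 ± 0.17 (log2, SE, limma adjusted p = 0.636). Without PlGF 1 it was -0.04. Notch1 (probe set 10481056) read 787.8 in all 3 control hearts, 912.9 and 792.3 in PlGF hearts, and 746.1, 680.7 and 777.3 in the hearts labelled PlGF/RGS4. The PlGF readings were above and the readings labelled PlGF/RGS4 below the control value, with differences from control of 0.11 ± 0.08 (limma adjusted p = 0.438) and -0.10 ± 0.07 (limma adjusted p = 0.995) on the log2 scale. Identical readings are a property of these files: of 6158 probe sets with a mean above 500, 27.8% gave the same value to 1 decimal in at least 2 of the 8 arrays, and 17 did so in all 3 controls. The SD of 0 for Notch1 is therefore not an estimate of how controls vary.

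Hey1 (probe set 10497203), the target, read 387.7, 438.8 and 360.1 in control hearts, 352.4 and 359.5 in PlGF hearts, and 353.9, 345.6 and 344.7 in the hearts labelled PlGF/RGS4. All 5 hearts outside the control group were below the lowest control heart, PlGF 2 only just. Hey1 differed from control by -0.15 ± 0.08 in PlGF (limma adjusted p = 0.32) and by -0.18 ± 0.07 in the hearts labelled PlGF/RGS4 (unadjusted p = 0.041, limma adjusted p = 0.968), on the log2 scale. Relative to its receptor in the same heart, Hey1 minus Notch1 was -1.02, -0.84 and -1.13 in control hearts, -1.37 and -1.14 in PlGF hearts, and -1.07, -0.98 and -1.17 in the hearts labelled PlGF/RGS4, a PlGF difference from control of -0.26 (exact permutation p = 0.2, two-sided). Dll4 minus Notch1 overlapped between all groups.

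**Figure D2:**
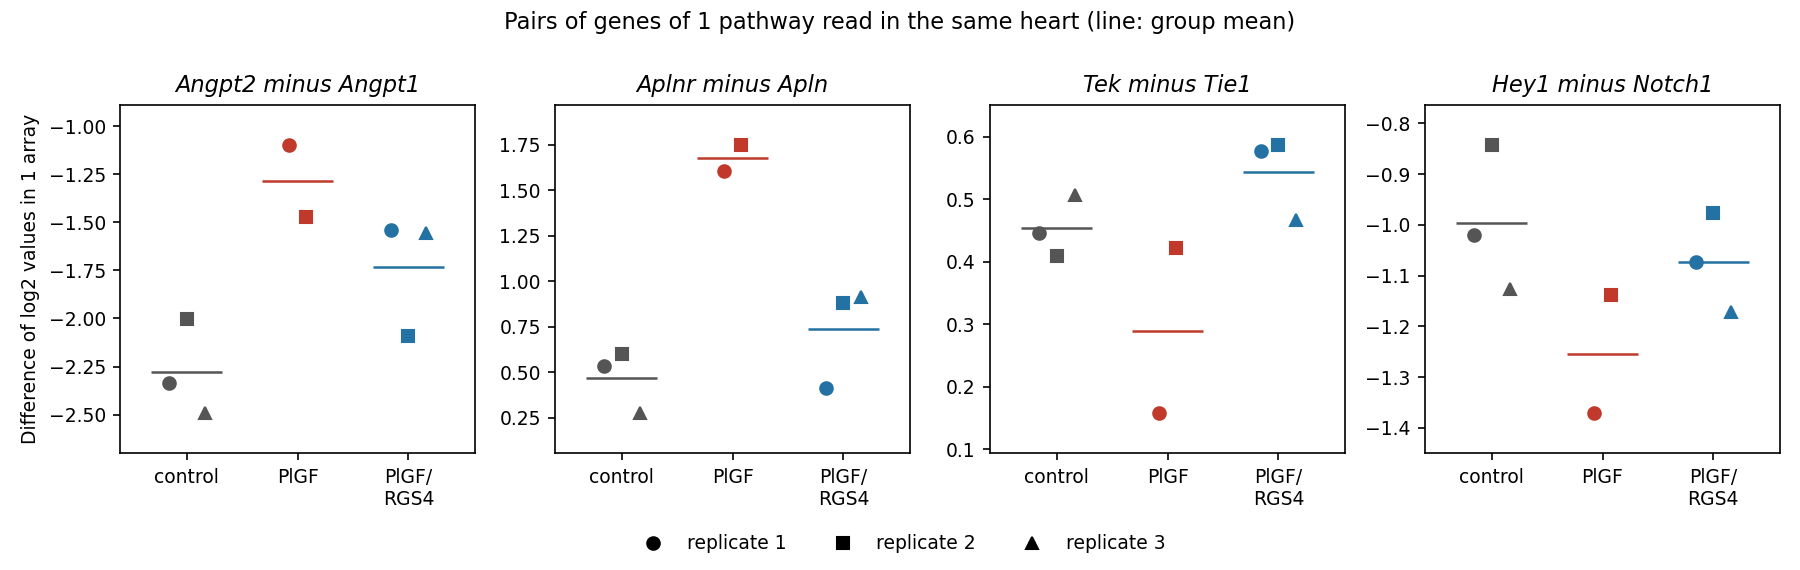
Difference of the log2 intensities of a pair of genes in the same heart (vertical axes) by group (horizontal axes), with symbols for the replicate number and a line at the group mean. Angpt2 minus Angpt1 and Aplnr minus Apln were higher in both PlGF hearts than in all 6 others, while Tek minus Tie1 ran from 0.16 to 0.42 in PlGF and overlapped control.

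None of the 10 members was called in the hearts labelled PlGF/RGS4 against control, where 0.0151% of all genes (3 genes) were called. Unadjusted p was under 0.05 for Angpt1 and Hey1, beside 5.02% of all genes. Readings did not overlap for 3 members (Angpt1, Notch1 and Hey1), all lower, beside 12.8% of all genes. The median of the 10 was -0.09 and that of all genes 0.00 on the log2 scale. For 8 of the 10 the difference was within 0.2 of 0, and the 95% interval for Aplnr ran from -0.43 to 0.44, well under the PlGF difference.

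PlGF was also compared with the hearts labelled PlGF/RGS4. No member was called, where 1.19% of all genes were. Unadjusted p was under 0.05 for 4 members (Aplnr, Tie1, Esm1 and Notch1), all higher in PlGF, beside 19.5% of all genes. Readings did not overlap for 6 members, of which Aplnr, Angpt2, Tie1, Esm1 and Notch1 were higher in PlGF and Angpt1 lower, beside 32.5% of all genes. Aplnr was 1.10 ± 0.21 higher (log2, SE, 95% interval 0.61 to 1.59, limma adjusted p = 0.0598), Esm1 0.79 ± 0.21 higher (adjusted p = 0.134), Tie1 0.23 ± 0.07 higher (adjusted p = 0.161) and Notch1 0.21 ± 0.08 higher (adjusted p = 0.214). Without PlGF 1 the difference was 0.37 for Esm1 and 0.11 for Notch1, and without PlGF 2 it was 1.21 and 0.32. In the fit without PlGF 2, Aplnr, Esm1 and Notch1 were called higher and Tek lower, beside 28.0% of all genes. No member was called by limma without PlGF 1, beside 1.37% of all genes called. Angpt1 differed by -0.22 ± 0.15 (95% interval -0.57 to 0.14, limma adjusted p = 0.45), so its levels in PlGF hearts and in the hearts labelled PlGF/RGS4 could not be told apart. The comparisons share arrays, and their values are set side by side without a test of likeness.

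**Figure D3:**
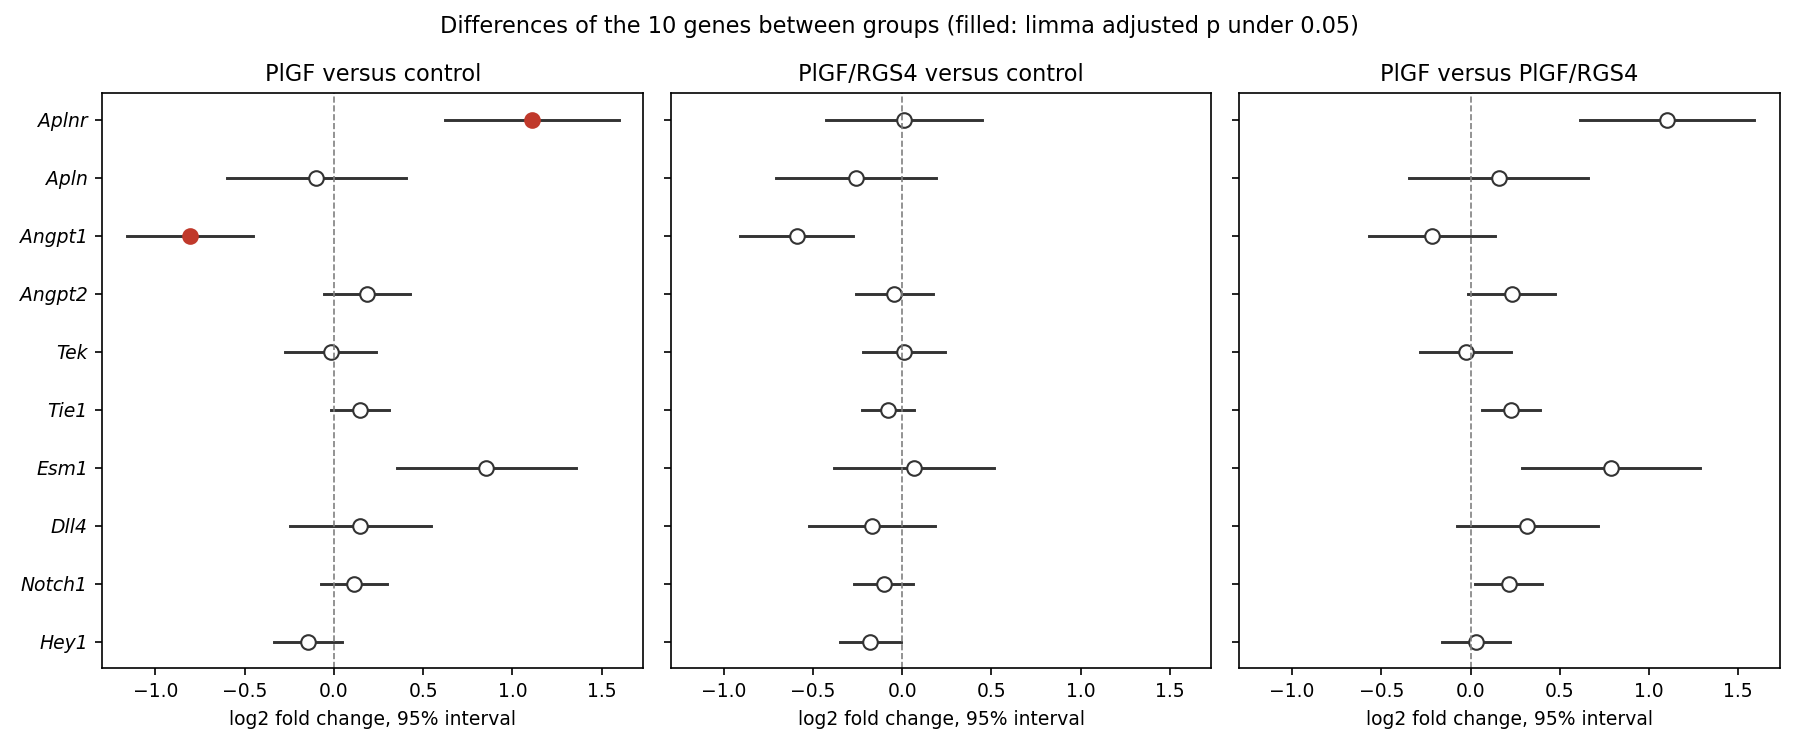
Log2 fold change (horizontal axes) of each of the 10 genes (vertical axis) in the 3 comparisons, as points with 95% intervals from limma over all 8 arrays, filled where the adjusted p was under 0.05. Aplnr at 1.11 and Angpt1 at -0.81 were the called members in PlGF against control, and Aplnr was also at 1.10 in PlGF against the hearts labelled PlGF/RGS4.

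In RNA from whole ventricle, fewer cells of a type and less RNA per cell cannot be told apart, so the members were also read against endothelial genes. The reference was the mean log2 level of Pecam1, Cdh5, Cldn5, Emcn, Egfl7, Esam, Erg and Eng. Relative to the control mean it was -0.06, 0.07 and 0.00 in control hearts, 0.27 and 0.08 in PlGF hearts, and -0.10, 0.01 and -0.01 in the hearts labelled PlGF/RGS4, 0.18 higher in PlGF than in control (exact permutation p = 0.1, two-sided). These 8 genes read higher in PlGF than the wider list of 15 endothelial markers did. That list also holds Kdr (0.57 from control in PlGF, log2) and Sox18 (0.09), which were higher. Vwf (-0.74), Cd36 (-0.23), Fabp4 (-0.17), Robo4 (-0.15) and Tal1 (-0.03), also in that list, were lower. None of these was called by limma. The mean of the 15 markers was 0.05 higher in PlGF, with overlap (exact permutation p = 0.5, two-sided). Aplnr relative to the reference of 8 genes was still 0.93 higher in PlGF than in control, without overlap, and Esm1 0.68 higher. Angpt1 relative to the reference was -0.98 from control in PlGF and -0.56 in the hearts labelled PlGF/RGS4, without overlap either time (each of these had exact permutation p = 0.1, two-sided, adjusted p = 0.429 over 30 tests). Perivascular cells and cardiomyocytes make Angpt1, so an endothelial reference does not scale it to its source cells. The reference itself was 0.18 higher in PlGF, which widens the Angpt1 difference. Relative to the 15 markers, PlGF differed from control by 1.06 for Aplnr, 0.81 for Esm1 and -0.85 for Angpt1, again without overlap (exact permutation p = 0.1, two-sided). Tie1, Notch1, Dll4 and Angpt2 were at -0.03, -0.06, -0.03 and 0.01 from control relative to the 8 genes, with overlap, and at 0.10, 0.06, 0.10 and 0.14 relative to the 15, where Angpt2 did not overlap, so their place relative to endothelial genes depended on the reference. Hey1 was at -0.32 and -0.20 on these scales, without overlap on either (exact permutation p = 0.2, two-sided), and Apln at -0.27 without overlap and -0.15 with overlap.

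Most leukocyte markers and the cell cycle genes measured were higher in the PlGF hearts, while few markers of other cells were called. Of 14 leukocyte markers measured, 8 were called higher in PlGF against control, where 2.53% of all genes were called. The median log2 difference of the 14 was 1.49. Their summed intensity was 1774.7 to 1938.8 in control hearts, 8887.7 and 3757.1 in PlGF hearts, and 1695.7 to 2054.9 in the hearts labelled PlGF/RGS4. Of them, Ms4a1 stayed at 19.1 to 27.2 in all 8 hearts. Of 5 cell cycle genes, none was called by limma, all 5 had an unadjusted p under 0.05, and their sum was 384.3 to 467.0 in control hearts and 1311.9 and 607.3 in PlGF. Both sums were higher in PlGF 1 than in PlGF 2, as were Angpt2, Esm1, Dll4, Notch1 and Apln among the members, whereas Aplnr, Angpt1, Tek, Tie1 and Hey1 were higher in PlGF 2. Among 15 endothelial markers, Cdh5 alone was called higher (0.30 ± 0.05, log2, SE, limma adjusted p = 0.0374), with a list median of 0.09 and sums that overlapped (29904.7 to 31767.9 in control hearts, 30989.9 and 32227.7 in PlGF). Among 10 markers of pericytes and smooth muscle, Pdgfrb alone was called higher (0.39 ± 0.07, limma adjusted p = 0.0459), and sums overlapped as well (13876.6 to 14704.9 in control hearts, 14176.0 and 13148.3 in PlGF). With 1 array left out at a time, Cdh5 and Pdgfrb each passed in 1 of 8 fits, with adjusted p of up to 0.128 and 0.162. None of 8 fibroblast markers was called by limma, and Col3a1, Col1a1 and Col1a2 were higher with an unadjusted p under 0.05. Of the others, Tcf21 was higher and Pdgfra, Dcn, Lum and Dpt were lower, none with an unadjusted p under 0.05. The fibroblast list median was 0.01, and sums overlapped (12402.3 to 13084.8 in control hearts, 12056.3 and 12701.7 in PlGF). None of 10 cardiomyocyte markers was called by limma either, and Ryr2, Pln and Atp2a2 were lower with an unadjusted p under 0.05. That level was reached by 22.6% of all genes in PlGF against control. The cardiomyocyte list median was -0.09. Cardiomyocyte sums were 129982.3 to 130513.1 in control hearts and 111117.8 and 126047.5 in PlGF hearts. In the hearts labelled PlGF/RGS4 they were 126114.1 to 127074.7, so both groups lay below control without overlap. Without PlGF 1, the list median was 1.03 for leukocyte, -0.01 for endothelial, -0.03 for pericyte, 0.07 for fibroblast and -0.01 for cardiomyocyte markers. The cardiomyocyte marker Nppa went in opposite directions in the PlGF hearts. It read 4681.6 in PlGF 1 and 1424.1 in PlGF 2, beside 3693.3, 4096.4 and 3184.6 in control hearts. In the hearts labelled PlGF/RGS4 it read 1661.3, 2223.8 and 1723.6. The part of these cells in the values for Aplnr, Angpt1 and Esm1 was not tested.

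The other genes of the pathways, from fixed lists, showed few calls. Of 8 further genes of the angiopoietin and Tie system, 1 was called lower in PlGF, beside 2.53% of all genes called. It was Klf2, a flow-responsive transcription factor of endothelium that angiopoietin-1 signalling also induces. Klf2 read 482.1, 419.2 and 448.6 in control hearts, 312.6 and 320.2 in PlGF hearts, and 451.2, 428.6 and 485.6 in the hearts labelled PlGF/RGS4. Both PlGF hearts were below all 6 others. The difference was -0.50 ± 0.08 from control (log2, SE, limma adjusted p = 0.0263) and -0.52 ± 0.08 from the hearts labelled PlGF/RGS4 (limma adjusted p = 0.0325). With 1 array left out at a time, the call against control passed in 1 of 8 fits (adjusted p of 0.0104 to 0.11), as did that against the hearts labelled PlGF/RGS4 (0.00978 to 0.151). Grb14, an adaptor that binds Tie2 and the insulin receptor, was at -0.54 ± 0.14 (limma adjusted p = 0.0851, and -0.30 without PlGF 1), Foxo1 at -0.26 ± 0.10 (adjusted p = 0.171) and Dok2, another adaptor of Tie2, at 0.24 ± 0.08 (adjusted p = 0.133). The list median was -0.23 and became -0.06 without PlGF 1.

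Of 34 further Notch genes, 1 was called higher in PlGF, beside 2.53% of all genes called: Adam17, a protease that sheds ligands and receptors. It read 625.4, 671.0 and 705.3 in control hearts, 872.2 and 828.1 in PlGF hearts, and 704.0, 738.9 and 731.6 in the hearts labelled PlGF/RGS4. The difference from control was 0.35 ± 0.06 (log2, SE, limma adjusted p = 0.0422), and the call passed in 1 of 8 fits with 1 array left out, with adjusted p of 0.0116 to 0.133. Adam10, the protease that cleaves Notch receptors after ligand binding, was at 0.27 ± 0.06 (limma adjusted p = 0.0723). Lfng, which adds sugars to Notch and alters its response to ligands, was at 0.55 ± 0.16 (adjusted p = 0.103, and 0.32 without PlGF 1) and 0.79 ± 0.16 above the hearts labelled PlGF/RGS4 (adjusted p = 0.0658). Nrarp, a target and feedback inhibitor of Notch, was at 0.51 ± 0.15 (adjusted p = 0.106). Among the canonical targets outside the members, Hes1 was at 211.0, 230.0 and 230.0 in control hearts and 230.0 in both PlGF hearts. It read 230.0, 225.8 and 232.6 in the hearts labelled PlGF/RGS4. Identical readings in at least 2 of the 8 arrays occurred for 57.6% of all probe sets, so these say little on whether Hes1 changed. Heyl differed by 0.21 ± 0.10 (adjusted p = 0.247), Hey2 by -0.21 ± 0.10 (adjusted p = 0.257) and Hes5 by -0.17 ± 0.09 (adjusted p = 0.325). The 34 genes had a median of 0.04 beside -0.03 for all genes.

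Of 25 further tip cell and VEGF genes, none was called by limma in PlGF, while 8 had higher and 3 had lower readings with an unadjusted p under 0.05, beside 22.6% of all genes, and the list median was 0.21 beside -0.03 for all genes. Kdr, the main VEGF receptor of endothelium, read 1284.5, 1545.0 and 1276.5 in control hearts and 2205.9 and 1847.1 in PlGF, 0.57 ± 0.12 higher (log2, SE, limma adjusted p = 0.0545). Lyve1, a hyaluronan receptor of lymphatic endothelium and of resident macrophages, read 1098.2, 1252.8 and 1458.2 in control hearts and 775.0 and 783.8 in PlGF (-0.69 ± 0.15, adjusted p = 0.0633). The other lymphatic markers measured were Flt4 (0.28), Pdpn (0.15) and Prox1 (-0.02), none with an unadjusted p under 0.05. Cxcr4, a chemokine receptor of tip cells and leukocytes, was at 0.83 ± 0.22 (adjusted p = 0.0858), and Lama4, a laminin chain of vessel basement membrane, at 0.32 ± 0.10 (adjusted p = 0.124). The median became 0.10 without PlGF 1 and 0.30 without PlGF 2. In the hearts labelled PlGF/RGS4 no gene of these 3 lists was called against control by limma, and an unadjusted p under 0.05 was reached by 1 gene with higher and 4 with lower readings, beside 5.02% of all genes.

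**Figure D4:**
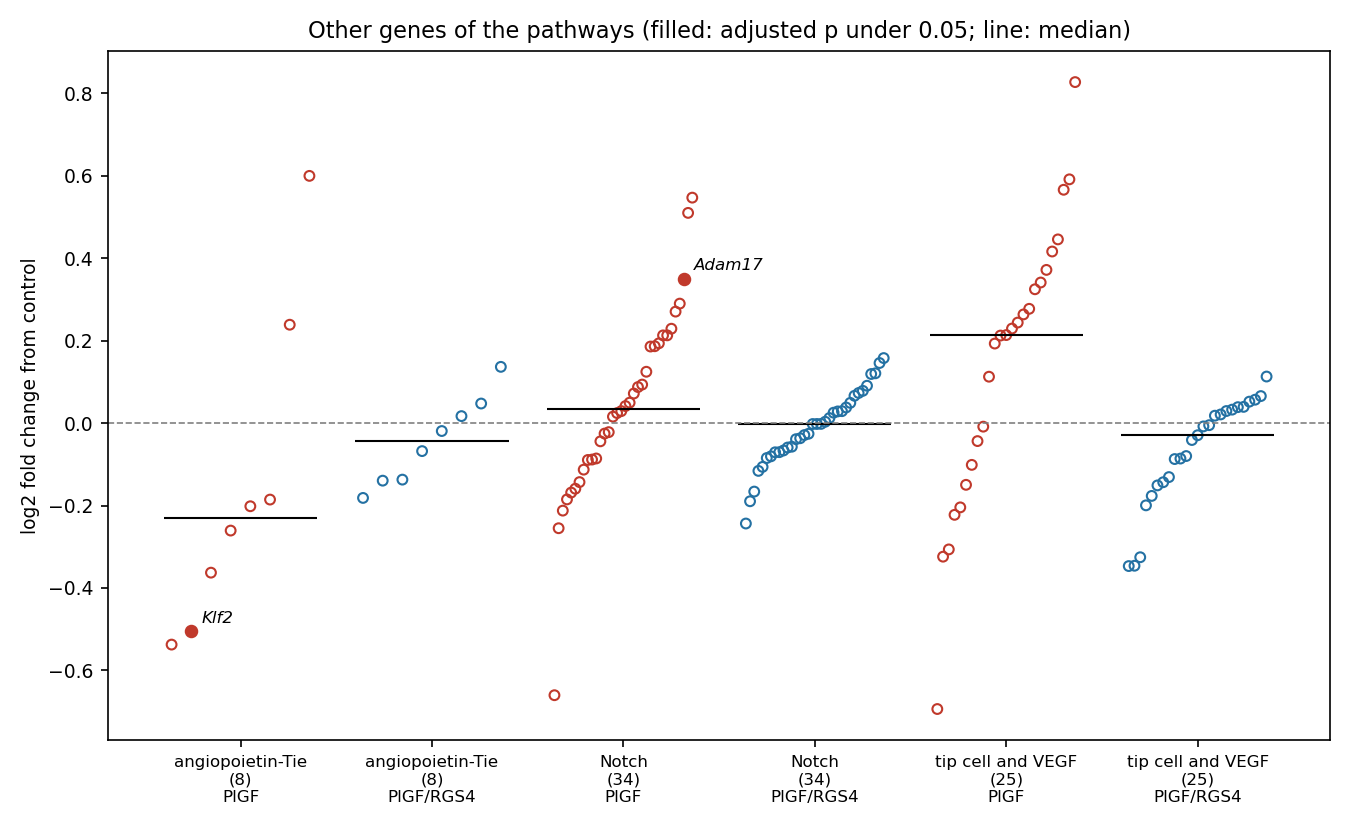
Log2 fold change from control (vertical axis) of the other genes of each pathway list, ordered by value, for PlGF hearts (red) and hearts labelled PlGF/RGS4 (blue), filled where the adjusted p was under 0.05, with a line at the median and the number of genes in brackets. Klf2 at -0.50 and Adam17 at 0.35 were the called genes, and the median of the tip cell and VEGF list was 0.21 in PlGF.

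Across the 8 hearts, the genes whose log2 pattern was most like that of Aplnr, among 9696 genes, were Pdgfrb and Dok4 (both with Pearson r of 0.967), Colec11 (0.955), Sh2b3 (0.952) and Arap3 (0.951). Pdgfrb, the pericyte receptor for PDGF-B, read 1402.3 to 1519.7 in control hearts, 1984.7 and 1822.9 in PlGF hearts, and 1436.2 to 1620.9 in the hearts labelled PlGF/RGS4, where its highest reading fell in the same heart as that of Aplnr. The genes most like Angpt1 were Apex2 (0.988), Tbrg4 (0.949), Slc39a14 (0.943), Ndufaf6 (0.94) and Tnnt1 (0.936). Apex2, a DNA repair nuclease, read 314.5 to 397.5 in control hearts, 239.7 and 236.9 in PlGF hearts, and 243.7 to 300.2 in the hearts labelled PlGF/RGS4, so it too was lower in all 5 hearts outside the control group. These correlations describe 8 arrays that fall into 3 groups, and a difference between groups enters them.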

How the data were processed

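Gene expression was read in left ventricular RNA of 8 mice on Affymetrix mouse gene 1.0 ST arrays. For the deposited intensity values the authors' methods state MAS5 with global scaling. MAS5 subtracts mismatch probes, which arrays of this type do not pair with their probes, so the program behind the values, and with it the origin of identical readings, could not be checked. The values are linear, 1 for each probe set, and the median intensity per array was 111.1 to 115.15. No scanner files were analysed here, so precision rests on the number of arrays. All value columns were used. Of 28440 probe sets, 21780 had 1 gene symbol, 1618 several and 5042 none, and 21689 were matched to RefSeq by Entrez identifier. Each gene was read by its brightest probe set, giving 19933 genes.

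Values were taken as log2(intensity + 1) and fitted with limma 3.58.1 in R 4.3.3 as 3 group means over all 8 arrays (5 residual degrees of freedom), with two-sided tests and Benjamini-Hochberg adjustment over all genes at 0.05. The genome build of the array annotation was not given in the sources used here, so coordinates are those of the RefSeq promoters. Pairs of genes within an array and levels relative to endothelial genes were compared by exact permutation over arrays. Per the labels, arrays of a group are biological replicates, with no batch stated. The fit was tested on simulated data. The alternatives were the normalization, the centring, the pseudocount, the probe set rule, a filter on dim genes, the prior, array weights, the arrays in the fit, the methods' t-test, a replicate block and leaving out each array. The members and gene lists were chosen with earlier results of these data known. Every member was named, and of each pathway list the 4 genes with the smallest p in PlGF against control, plus the 5 genes most like each called member. Hes1, Heyl, Hey2, Hes5 and single marker genes were named after their values were seen, and the reference of all 15 endothelial markers was also added then.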

Additional observations from a re-analysis of the deposited data

How the results depend on the processing

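With 2 PlGF arrays and the variance shared over 8, calls near 0.05 were fragile, while directions of the 2 called members held in every alternative. In PlGF against control, 2 members were called, and 0 were called with array weights, with only the compared groups fitted, with the methods' t-test, with log2(intensity + 16) or with a replicate block. Leaving out 1 array gave 0 to 4 called members (the 4 without PlGF 2), and 0 to 4 in PlGF against the hearts labelled PlGF/RGS4. Aplnr then had an adjusted p of 0.271, 0.154, 0.505, 0.0525 and 0.121 and Angpt1 of 0.235, 0.215, 0.524, 0.0526 and 0.143, and both passed under the 6 other settings. The 505 genes called in PlGF against control became 131 with array weights, 0 with only these groups fitted, 4 by the t-test and 27 with the replicate block, and 17 to 5921 when 1 array was left out (the most without PlGF 2). The 237 called in PlGF against the hearts labelled PlGF/RGS4 became 110 with dim genes removed, 1 with only these groups fitted, 5 by the t-test, 138 with log2(intensity + 16) and 26 with the block, and 11 to 5591 with 1 array left out. The 3 called in the hearts labelled PlGF/RGS4 against control became 0 with only these groups fitted, by the t-test and with the block, and 0 to 1 with 1 array left out. The replicate block uses numbers that do not pair the arrays, since deviations of arrays with the same number correlated at -0.217 to 0.296. The highest value was for control 2 and PlGF/RGS4 2, both with low Xist. PlGF 1, also with low Xist, correlated with them at 0.144 and 0.217.

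Directions turned only for members that were not called. These were, in PlGF against the hearts labelled PlGF/RGS4, Hey1 with arrays centred on their medians (-0.0126) or with the block (-0.0038), and with 1 array left out Apln (-0.0769 to 0.2855) and Tek (-0.2342 to 0.1777). In PlGF against control they were, with 1 array left out, Dll4 (-0.0402 to 0.3362) and Tek (-0.2243 to 0.1876). In the hearts labelled PlGF/RGS4 against control they were Tek with array weights (-0.0009) and, with 1 array left out, Angpt2 (-0.0868 to 0.0394), Aplnr (-0.2063 to 0.1717) and Tek (-0.0145 to 0.0321). Relative to the endothelial reference, Angpt2 in PlGF against control was -0.0506 after quantile normalization, and with all 15 endothelial markers as the reference, a choice made after seeing the data, it was 0.1361, Apln -0.1481, Dll4 0.0991 and Notch1 0.0613. With 1 array left out, PlGF values relative to the reference ran, against control, from -0.1238 to 0.0694 for Dll4, 0.3487 to 1.0086 for Esm1, -0.4912 to 0.104 for Tek and -0.1949 to 0.1365 for Tie1. Against the hearts labelled PlGF/RGS4 they ran from 0.2519 to 0.9118 for Esm1, -0.5316 to 0.0636 for Tek and -0.1459 to 0.1855 for Tie1. Within arrays, Dll4 minus Notch1 ran from -0.0484 to 0.1239 and Tek minus Tie1 from -0.2962 to -0.0324 against control, and Tek minus Tie1 from -0.3856 to -0.1218 against the hearts labelled PlGF/RGS4. The cause of these changes was not tested.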
